A study of Mus musculus with 12 samples.

Results

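Osteoclasts, the bone-resorbing cells of the monocyte lineage, become multinucleated by fusing with each other, and 6 genes with a known part in that fusion were examined in mouse macrophages and osteoclasts with and without LPS (lipopolysaccharide from the outer membrane of bacteria). The 6 genes, Dcstamp, Ocstamp, Cd9, Cd81, Cd47 and Sirpa, were matched by symbol among the 54532 genes of the deposited table. All 6 reached 1 FPKM (fragments per kilobase of gene, scaled per library) in at least 3 of the 12 libraries and so entered the test among 11335 genes. Dcstamp and Ocstamp reached that level through the osteoclast libraries alone, so their difference between the cell types was bound to appear.

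Wild-type (WT) mouse marrow cells were grown with CMG, a source of M-CSF, to give bone-marrow-derived macrophages. The 4 groups of 3 libraries were macrophages without RANKL, the same with LPS, osteoclasts made with RANKL, and osteoclasts with RANKL and LPS. On day 5 of culture the treated groups received 100 ng/mL LPS for 3 h, and every group shared the WT genotype and the M-CSF source. The sample labels give RANKL at 100 ng/mL, whereas the culture protocol gives a range that ends at that dose. No label states the age or sex of the mice or whether libraries came from separate mice or cultures, so p-values measure only the spread between these libraries.

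DC-STAMP and OC-STAMP are multipass membrane proteins of the cell surface that precursors need in order to fuse, and their genes are known targets of the RANKL-driven factor NFATc1. CD9 and CD81 are tetraspanins, small membrane proteins that gather integrins and immunoglobulin-family partners into membrane domains and that are known to influence fusion of macrophages. CD47 is a widely expressed surface protein that binds SIRPα on myeloid cells, a contact best known for restraining phagocytosis and also reported in macrophage fusion.

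Promoter sequence could be read for 3 of the 6 genes in RefSeq's table for build GRCm38.p6, and it is shown because Cd9 and Cd81 parted between the cell types and Cd47 was the gene that LPS moved most. Each line holds the 250 bases before the first start in RefSeq's table, read 5′ to 3′ on the gene's strand, with each GGGCGG match (the SP1 box, read on both strands) in capitals.
Cd9: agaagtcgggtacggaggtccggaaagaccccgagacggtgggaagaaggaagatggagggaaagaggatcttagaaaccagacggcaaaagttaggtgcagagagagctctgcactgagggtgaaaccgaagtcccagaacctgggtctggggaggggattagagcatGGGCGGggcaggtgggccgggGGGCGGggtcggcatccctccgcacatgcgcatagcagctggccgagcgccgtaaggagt
Cd81: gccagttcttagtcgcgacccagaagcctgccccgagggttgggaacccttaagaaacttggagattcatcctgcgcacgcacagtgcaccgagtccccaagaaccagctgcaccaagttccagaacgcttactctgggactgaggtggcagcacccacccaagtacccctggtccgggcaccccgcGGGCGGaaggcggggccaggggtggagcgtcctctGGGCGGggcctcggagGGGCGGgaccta
Cd47: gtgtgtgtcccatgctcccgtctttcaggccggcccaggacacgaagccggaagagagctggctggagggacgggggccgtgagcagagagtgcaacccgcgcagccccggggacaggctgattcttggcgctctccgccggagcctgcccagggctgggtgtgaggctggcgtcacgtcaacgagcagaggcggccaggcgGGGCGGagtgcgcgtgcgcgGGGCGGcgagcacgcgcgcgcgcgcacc
The Cd9 window lies at chr6:125494761-125495010 on the minus strand, and the Cd81 window at chr7:143052500-143052749 on the plus strand. The Cd47 window lies at chr16:49855404-49855653 on the plus strand. RefSeq's start is 31 bases inside the GENCODE gene used for the levels for Cd9, 11 bases for Cd81 and 55.1 kb for Cd47, whose GENCODE gene holds a transcript that begins farther upstream. GC content was 61.6% for Cd9, 65.6% for Cd81 and 73.2% for Cd47, which had 30 CpG pairs against 16 in each of the other two. The SP1 box occurred 2 times for Cd9, 3 times for Cd81 and 2 times for Cd47, and 33.0% of 32536 distinct promoter windows of the same length held it. No match was found in these windows for the letters TGANTCA of AP-1 (in 6.73% of all windows), for the NF-kB motif (3.92%), for TTCNNNGAA of STAT factors (7.04%), for TATAAA (12.3%), for the E-box CACGTG (6.04%), for GGAAAA of NFAT (20.4%) or for GAGGAA of PU.1 (23.4%), all read on both strands. GGAAAA and GAGGAA can share bases, and a match or its absence describes these letters only.

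Between 15651955 and 20281567 reads per library were recovered from the steps of the FPKM values. The cell type labels were checked against markers. The summed level of 8 osteoclast markers, among them cathepsin K (Ctsk) and the calcitonin receptor (Calcr), was between 28715 and 31686 FPKM in the osteoclast libraries and between 51.2 and 92.9 FPKM in the macrophage libraries. The 8 macrophage markers summed to between 2040 and 2511 FPKM in macrophages and to between 1702 and 1804 FPKM in osteoclasts, where Cd68 and Csf1r made up most of the sum. Markers of lymphocytes, erythroid cells and dendritic cells summed to at most 1.46 FPKM in any library. Stromal markers, led by collagen genes, summed to between 25.6 and 35.9 FPKM in macrophages and to at most 0.742 FPKM in osteoclasts. Neutrophil markers summed to between 4.08 and 11.8 FPKM in macrophages and to between 0.170 and 1.62 FPKM in osteoclasts. Pf4, a platelet and macrophage chemokine, brought the platelet list to between 594 and 924 FPKM in macrophages, and to between 9.32 and 19.95 FPKM in osteoclasts, whereas the platelet genes Itga2b and Gp1ba stood at or under 1.21 FPKM. The part of these other cells in the results was not tested.

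Dcstamp and Ocstamp, the dedicated fusion proteins, were almost absent from macrophages and abundant in osteoclasts. Dcstamp (ENSMUSG00000022303, chr15:39745930-39760938, plus strand, build GRCm38) read 0.421, 0.383 and 0.472 FPKM in the 3 untreated macrophage libraries and 346, 360 and 348 FPKM in the untreated osteoclast libraries. Those macrophage levels rested on 24 to 28 reads per library, against 15759 to 17024 reads in untreated osteoclasts. The ratio of the group means was 826-fold, and the difference on the log2(FPKM + 1) scale, which understates changes from low levels, was 7.95 ± 0.06 (SE, limma adjusted p = 1.4e-16). Ocstamp (ENSMUSG00000027670, chr2:165393760-165400405, minus strand) read 0.165, 0.186 and 0.135 FPKM in untreated macrophages and 103, 105 and 107 FPKM in untreated osteoclasts, a ratio of 648-fold. Its difference was 6.51 ± 0.04 on the log2 scale (limma adjusted p = 7.92e-17). Both genes passed the filter through the osteoclast libraries alone, so the outcome of these tests was fixed and their p-values add no support. By mean level Dcstamp ranked 101st and Ocstamp 420th of all genes in untreated osteoclasts. All 6 fusion genes were called in this comparison, 3 higher and 3 lower, but 77.8% of all genes tested were called too, so the count itself says little about the fusion genes.

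**Figure D1:**
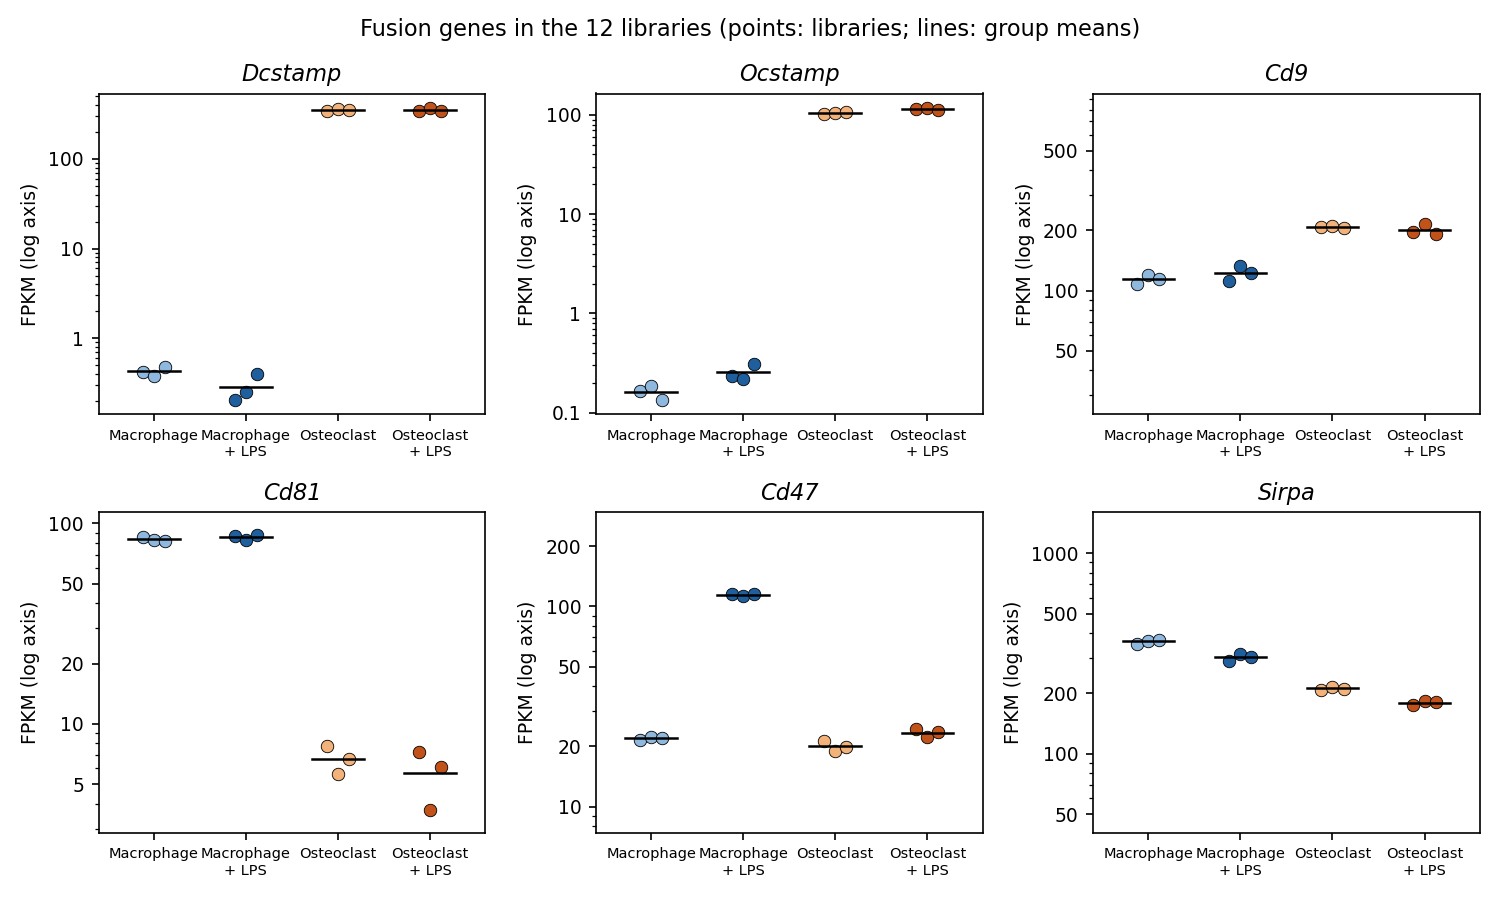
Level of each of the 6 fusion genes (FPKM, log axis) in the 12 libraries, by group; points are libraries and lines are means of 3. Dcstamp and Ocstamp are under 0.5 FPKM in each macrophage library and above 100 FPKM in each osteoclast library, Cd81 goes the other way, and Cd47 stands out in LPS-treated macrophages alone.

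LPS left the high osteoclast levels of Dcstamp and Ocstamp in place. Dcstamp read 342, 369 and 340 FPKM in LPS-treated osteoclasts, a range that spans the 3 untreated values. The difference was -0.00463 on the log2 scale, with a 95% confidence interval from -0.13 to 0.12 (limma adjusted p = 0.969). Ocstamp read 115, 117 and 112 FPKM, each above the highest untreated osteoclast library. Its difference of 0.13 ± 0.04 on the log2 scale, or 1.09-fold, missed the threshold (limma adjusted p = 0.0557). It was called in 2 alternatives, by voom on the recovered reads (limma adjusted p = 0.0193) and without replicate 3 of the LPS-treated macrophages (limma adjusted p = 0.0428). Leaving out that macrophage replicate keeps the osteoclast values and changes the spread that the groups share in the fit. With quantile normalization no fusion gene was called higher for LPS in osteoclasts.

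The ratio of Dcstamp to Ocstamp, which no scaling between libraries can move, was 3.35, 3.43 and 3.25 in untreated osteoclasts and 2.97, 3.14 and 3.04 with LPS. The 2 groups did not overlap in this ratio. With 3 libraries against 3, an exact permutation test cannot go below p = 0.10, and none is given here. In order of level, both genes were highest in the osteoclast groups, whose Dcstamp values overlapped and whose Ocstamp values did not.

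In macrophages the same pair stayed under 0.5 FPKM with LPS. Dcstamp read 0.206, 0.252 and 0.401 FPKM, from 7 to 15 reads per library, and overlapped the untreated range. Ocstamp read 0.236, 0.220 and 0.311 FPKM, from 11 to 16 reads, and lay above it. Limma called Dcstamp at -0.15 and Ocstamp higher by 0.11 on the log2 scale (adjusted p = 0.031 and 0.0309). Neither call held with voom on the reads (adjusted p = 0.19 and 0.112), nor with quantile normalization, nor when only the macrophage groups were fitted. The Dcstamp call was also lost with no filter (adjusted p = 0.0554) and the Ocstamp call under TPM (adjusted p = 0.972), where Dcstamp was at -0.64. Leaving out untreated macrophage replicate 1 or 3 ended both calls, as did leaving out LPS-treated replicate 1 or 2 for Dcstamp and replicate 3 for Ocstamp. With LPS the osteoclasts remained 1225-fold above the macrophages for Dcstamp and 449-fold for Ocstamp.

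Cd9 and Cd81, the tetraspanin pair, moved apart between the cell types. Cd9 (ENSMUSG00000030342, chr6:125460266-125494791, minus strand) read 108, 120 and 114 FPKM in untreated macrophages and 208, 210 and 206 FPKM in untreated osteoclasts. Each osteoclast library lay above each macrophage library, and the difference was 0.86 ± 0.06 on the log2 scale, a 1.82-fold ratio of means (limma adjusted p = 8.77e-08). Under TPM it was 0.45 and under quantile normalization 0.44, both called. Cd81 (ENSMUSG00000037706, chr7:143052739-143067934, plus strand) read 85.8, 82.5 and 81.4 FPKM in untreated macrophages and 7.79, 5.65 and 6.68 FPKM in untreated osteoclasts. That was a 12.4-fold lower mean in osteoclasts, with a difference of -3.46 ± 0.16 on the log2 scale (limma adjusted p = 1.06e-09). In macrophages Cd81 stood among the most abundant genes, above 96.3% of those tested, and in osteoclasts it stood above 56.1%.

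Summed over the pair, the level was 197 ± 4.71 FPKM in untreated macrophages and 215 ± 1.82 FPKM in untreated osteoclasts (SD, n = 3 each). Every osteoclast sum lay above every macrophage sum, but this order turned under TPM, with 752 to 775 TPM in untreated macrophages and 617 to 625 TPM in untreated osteoclasts. The make-up differed too. Cd9 gave 57.8% ± 1.80 of the sum in untreated macrophages and 96.9% ± 0.49 in untreated osteoclasts. With LPS the share was 58.8% ± 2.74 in macrophages and 97.2% ± 0.96 in osteoclasts (SD, n = 3 each). These shares are formed within a library, so library scaling cannot change them.

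**Figure D2:**
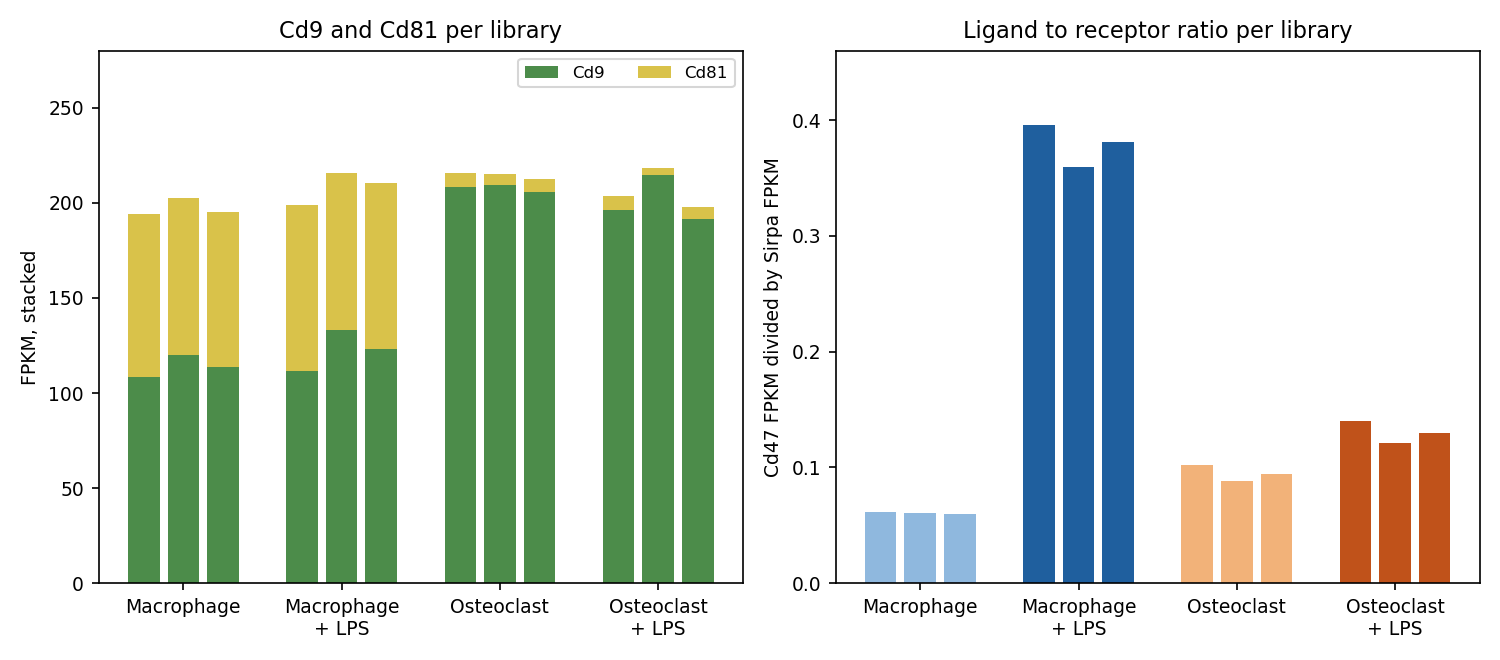
Left, Cd9 and Cd81 levels stacked (FPKM) for each of the 12 libraries; right, Cd47 FPKM divided by Sirpa FPKM for each library, coloured by group. The stacked bars are of similar height while the Cd81 portion shrinks in osteoclasts, and the Cd47 to Sirpa ratio is highest, between 0.359 and 0.396, in LPS-treated macrophages.

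LPS did not produce a call for either tetraspanin in either cell type. Cd9 read 112, 133 and 123 FPKM in LPS-treated macrophages and 196, 215 and 192 FPKM in LPS-treated osteoclasts, overlapping the untreated ranges in both. The log2 differences were 0.10 (95% confidence interval -0.04 to 0.24) in macrophages and -0.05 (-0.19 to 0.09) in osteoclasts. Cd81 read 87.1, 82.7 and 87.4 FPKM in LPS-treated macrophages and 7.26, 3.74 and 6.07 FPKM in LPS-treated osteoclasts. Its log2 differences were 0.04 (-0.31 to 0.40) and -0.23 (-0.59 to 0.12). The macrophage values depended on scaling. Rescaling to TPM, which divides each library by its own sum and put the median of all genes at -0.55, gave -0.55 for Cd9 and -0.60 for Cd81, both called, and quantile normalization gave -0.76 and -0.72, also called. Without LPS-treated macrophage replicate 1 the deposited scale gave 0.16 for Cd9, which was then called (limma adjusted p = 0.0299). Beside LPS-treated macrophages, LPS-treated osteoclasts were higher by 0.71 for Cd9 and lower by -3.73 for Cd81 on the log2 scale.

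Of the 8 macrophage markers, 7 were lower in untreated osteoclasts, as Cd81 was, and Cd68 was higher, beside 77.8% of all genes called. Cx3cr1 and Fcgr1 passed the filter through macrophage libraries, which bound them to be lower in osteoclasts. In bulk RNA fewer cells of a type and less RNA per cell cannot be told apart. Cd81 in untreated osteoclasts was 8.06% of its macrophage mean. Adgre1, the gene of the macrophage protein F4/80, stood at 7.74%, Mertk, an efferocytosis receptor, at 9.22%, and Mrc1, the mannose receptor, at 0.877%. Cx3cr1, a chemokine receptor, stood at 0.342% and Fcgr1, an Fc receptor, at 0.952%. Itgam, an integrin chain of myeloid cells, stood at 24.3%, Csf1r, the M-CSF receptor, at 70.4%, and Cd68, of lysosomes, at 209%. LPS-treated osteoclast replicate 2 had the lowest Cd81 of all libraries, 4.36% of the macrophage mean, and was also the lowest of its group for 6 of the 8 markers. Its Adgre1 was 6.35% against 10.9% and 10.6% in replicates 1 and 3, and its Mrc1 0.472% against 0.976% and 0.994%. Cd68 and Csf1r were highest of the group in that library. The part of remaining macrophages in the Cd81 level was not tested.

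Cd47 was the fusion gene that LPS moved most, and it did so in macrophages. Cd47 (ENSMUSG00000055447, chr16:49800533-49915010, plus strand) read 21.7, 22.2 and 22.1 FPKM in untreated macrophages and 115, 112 and 116 FPKM in LPS-treated macrophages. The groups were far apart relative to the spread of their libraries, with a 5.20-fold ratio of means and a difference of 2.33 ± 0.05 on the log2 scale (limma adjusted p = 8.95e-13). In osteoclasts Cd47 read 21.3, 19.0 and 19.9 FPKM without LPS and 24.5, 22.2 and 23.5 FPKM with LPS, which did not overlap. That was a 1.17-fold ratio and a difference of 0.21 ± 0.05 (limma adjusted p = 0.00688). The osteoclast call was lost with quantile normalization (adjusted p = 0.0527) and when only the osteoclast groups were fitted (adjusted p = 0.0555).

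The difference between the 2 responses was itself tested. The LPS effect on Cd47 in osteoclasts minus that in macrophages was -2.11 ± 0.07 on the log2 scale (limma adjusted p = 2.09e-10). It was the only one of the 6 fusion genes called in that test, in which 56.6% of all genes tested were called. Rescaling to TPM gave -1.57 and quantile normalization -1.58, both still called. Cd9, Sirpa and, under TPM, Dcstamp were then called too.

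Without LPS, Cd47 differed little between the cell types. The osteoclast mean was 1.10-fold lower, with a log2 difference of -0.13 ± 0.05 (limma adjusted p = 0.0229), and the call was lost without untreated macrophage replicate 2 or 3 and without untreated osteoclast replicate 2 or 3 (adjusted p from 0.056 to 0.105). TPM gave -0.55 and quantile normalization -0.26, both called. With LPS, osteoclasts were 4.88-fold lower than macrophages, a log2 difference of -2.24 ± 0.05 (limma adjusted p = 6.26e-13). The order of levels was thus LPS-treated macrophages first, then a close set of LPS-treated osteoclasts, untreated macrophages and untreated osteoclasts. The lowest LPS-treated osteoclast library stood at 22.21 FPKM and the highest untreated macrophage library at 22.19 FPKM, a pair of groups that was not tested.

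Sirpa, the receptor of CD47 on myeloid cells, was the most abundant of the 6 genes in macrophages and fell with LPS in both cell types. Sirpa (ENSMUSG00000037902, chr2:129592835-129632228, plus strand) read 354, 365 and 371 FPKM in untreated macrophages and 291, 313 and 303 FPKM with LPS. It read 208, 215 and 211 FPKM in untreated osteoclasts and 175, 184 and 181 FPKM with LPS. No 2 of the 4 groups overlapped, so the order ran from untreated macrophages down to LPS-treated osteoclasts. The LPS differences were -0.27 ± 0.04 in macrophages and -0.23 ± 0.04 in osteoclasts on the log2 scale (limma adjusted p = 4.95e-05 and 0.00109). Their difference was 0.03 (95% confidence interval -0.08 to 0.15), which was not called on the deposited scale but was 0.61 under TPM and 0.73 under quantile normalization, both called, with LPS differences in macrophages of -0.91 and -1.06. Osteoclasts had a 1.72-fold lower mean than macrophages without LPS and a 1.68-fold lower mean with LPS. The untreated difference was -0.78 ± 0.04 on the log2 scale (limma adjusted p = 1.59e-09), and -1.20 under TPM.

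In all, LPS changed 4 of the 6 fusion genes in macrophages, where 69.9% of all genes tested were called, and 2 of the 6 in osteoclasts, where 17.7% were called. Between LPS-treated osteoclasts and LPS-treated macrophages all 6 were called, against 83.9% of all genes tested. With 6 genes the counts single out nothing against these shares. The macrophage count includes the Dcstamp and Ocstamp calls that other settings ended.

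**Figure D3:**
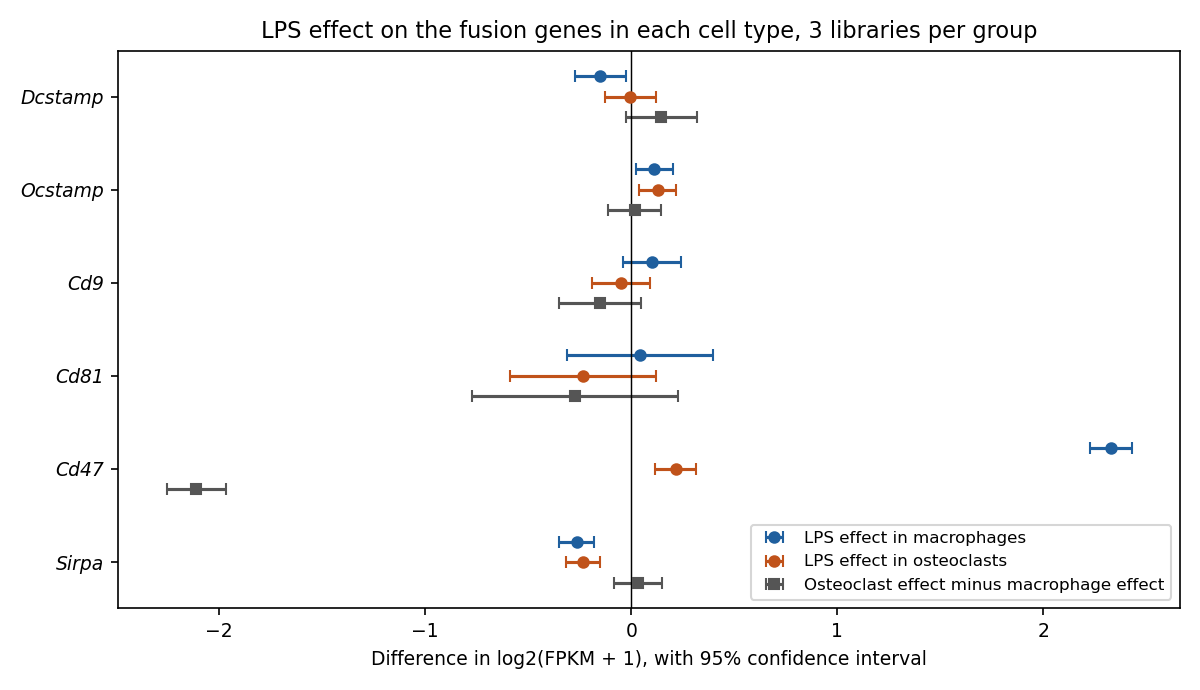
LPS effect on each fusion gene as the difference in log2(FPKM + 1) with its 95% confidence interval, in macrophages, in osteoclasts, and as the osteoclast effect minus the macrophage effect. Cd47 rises by 2.33 in macrophages and by 0.21 in osteoclasts, and the points of the other 5 genes lie within 0.3 of 0.

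As a ratio within each library, Cd47 to Sirpa was 0.0612, 0.0607 and 0.0596 in untreated macrophages and 0.396, 0.359 and 0.381 with LPS. In osteoclasts it was 0.102, 0.0882 and 0.0941 without LPS and 0.140, 0.121 and 0.130 with LPS. The ligand to receptor ratio was therefore higher with LPS in every library of both cell types. The means were 0.0605 and 0.379 in macrophages, and 0.0948 and 0.130 in osteoclasts.

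Other genes with a known part in macrophage or osteoclast fusion split in both directions. Of 19 such genes, 15 were tested, and between untreated osteoclasts and untreated macrophages 9 were higher, 5 lower and 1 not called, with a median log2 difference of 0.29 against 0 for all genes tested, of which 77.8% were called. Atp6v0d2, a proton pump subunit required for fusion, was higher by 7.36. Itgb3, the β3 integrin chain, which reached 1 FPKM in 2 macrophage libraries and so passed the filter through the osteoclasts, was higher by 5.62, and Mmp14, a membrane-bound metalloproteinase, by 5.17. Cd36, a scavenger receptor, was lower by -4.23. Between the LPS-treated cell types 6 of the list were higher in osteoclasts and 8 lower, with a median of -0.20. For all genes tested that median was -0.02, and 83.9% were called. The 4 not tested were Adam12, Cdh1, Syna and Synb, none above 0.416 FPKM in any library. Synb, the gene of syncytin-B, was at 0 in all 12.

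Under LPS the same list gave 5 higher and 5 lower in macrophages, with a median of 0.12 against 0.02 for all genes tested, of which 69.9% were called. Mmp14 was higher by 3.83, Sbno2 by 2.15, Cd44 by 1.89 and Itgav by 1.497 on the log2 scale, where quantile normalization gave 1.11 for Cd44 and 0.79 for Itgav. Mmp14 read 2.87, 2.54 and 2.24 FPKM in untreated macrophages and 50.2, 45.6 and 53.0 FPKM with LPS. In osteoclasts, 4 were higher and 2 lower with a median of 0.01 against 0.01 for all genes tested, of which 17.7% were called, led by Cd44, a hyaluronan receptor, at 0.45 and P2rx7, an ATP-gated channel, at -0.33 (-0.51 under TPM). Sbno2 was at 0.24 and Adam8 at -0.24, but the Sbno2 call was lost under TPM (adjusted p = 0.074) and quantile normalization (adjusted p = 0.064).

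Other tetraspanins also differed in both directions. Of 24 genes 15 were tested, and 9 were higher and 4 lower in untreated osteoclasts, beside 77.8% called among all genes tested, with a median log2 difference of 0.23. Tspan7 and Tspan10 reached 1 FPKM in osteoclast libraries alone and Tspan33 in macrophage libraries alone, so their differences between the cell types were bound to appear. Tspan7 was higher by 4.41, Cd82 by 2.01, Tspan5 by 1.52 and Cd63, a tetraspanin of late endosomes, by 1.49. Tspan7 was at 0.0181 to 0.0610 FPKM in untreated macrophages and at 20.6, 20.7 and 21.6 FPKM in untreated osteoclasts. Beside LPS-treated macrophages, 9 tetraspanins were higher and 4 lower in LPS-treated osteoclasts, with a median of 0.48 and 83.9% of all genes called. With LPS, 6 rose and 4 fell in macrophages, beside 69.9% of all genes called, with a median of 0.05. Tspan14, a partner of the protease ADAM10, was lower by -2.28, while Tspan33, of the same subgroup, was higher by 1.87, Cd82 by 1.11 and Tspan3 by 1.00. The last 2 were smaller under TPM, at 0.52 for Cd82 and 0.39 for Tspan3, and under quantile normalization, at 0.74 and 0.55, and were still called. In osteoclasts 3 rose and 1 fell, beside 17.7% of all genes called, with a median of -0.04: Tspan33 by 0.65 (1.12 under TPM), Tspan3 by 0.51, Cd82 by 0.22 and Cd151 by -0.26. The Cd82 call there was lost under TPM (adjusted p = 0.0988) and quantile normalization (adjusted p = 0.117).

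Partners that bind CD9 and CD81 were also measured. Of 8 genes 7 were tested, and in untreated osteoclasts 3 were higher and 3 lower, beside 77.8% of all genes called, with a median of 0.08. Itga6, the laminin-binding α6 integrin chain, was lower by -4.05 and Adam10 by -1.39, whereas the immunoglobulin-family genes Igsf3 and Ptgfrn were higher by 1.83 and 1.04. Igsf3 and Ptgfrn reached 1 FPKM in osteoclast libraries alone, so their higher level there was bound to appear. Beside LPS-treated macrophages, 2 partners were higher and 4 lower in LPS-treated osteoclasts, with a median of -1.05 and 83.9% of all genes called. With LPS in macrophages 4 rose and 2 fell, beside 69.9% of all genes called, with a median of 0.25, led by Itga4, the α4 integrin chain, at 2.42 and by Itga6 at -0.84 (-1.49 under TPM). Igsf8 was at 0.67 and Itgb1 at 0.47 on the deposited scale, but Igsf8 was not called under TPM (adjusted p = 0.329) and Itgb1 turned to -0.17 under TPM and -0.38 under quantile normalization. In osteoclasts Itga4 was higher by 0.59 and Igsf8 by 0.39, Itga6 was lower by -0.34, and 4 were not called, beside 17.7% of all genes called.

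Of 12 genes around CD47 and SIRPα, 11 were tested, and 7 were lower and 2 higher in untreated osteoclasts, beside 77.8% of all genes called, with a median of -0.75. Thbs1, Thbs2, Sirpb1a and Sirpb1c reached 1 FPKM in macrophage libraries alone, which bound them to be lower in osteoclasts. Thbs1, the gene of thrombospondin-1, a soluble CD47 ligand, was lower by -5.22. Fyb, an adapter downstream of SIRPα, was lower by -2.89 and Lrp1, an uptake receptor, by -2.28, whereas Calr, the gene of calreticulin, was higher by 1.23 (0.82 under TPM). Thbs1 read 52.1, 44.4 and 39.5 FPKM in untreated macrophages and 0.268, 0.136 and 0.310 FPKM in untreated osteoclasts. The phosphatases that SIRPα recruits were not called there, with a log2 difference of -0.03 for Ptpn6 and 0.05 for Ptpn11. That depended on scaling, since under TPM all 11 tested genes of the list were called, 2 higher and 9 lower. Beside LPS-treated macrophages, 3 of these genes were higher and 8 lower in LPS-treated osteoclasts, with a median of -0.83 and 83.9% of all genes called. With LPS in macrophages 3 rose and 3 fell, beside 69.9% of all genes called, with a median of 0.05, led by Fyb at 1.375 (0.74 under TPM and 0.66 under quantile normalization). Calr at 0.42 and Ptpn11 at 0.39 were among the rises, but both turned negative under TPM, and Ptpn6 was lower by -0.38, or by -1.03 under TPM and -1.11 under quantile normalization. In osteoclasts only Fyb was called, at 0.48, with libraries that overlapped, beside 17.7% of all genes called. Sirpb1a and Sirpb1c, SIRP-family genes close in sequence to each other, are uncertain where reads could be split between them.

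Regulators of the fusion genes differed by cell type in both directions. All 14 described here were tested, and 7 were higher and 7 lower in untreated osteoclasts, beside 77.8% of all genes called, with a median of 0.16. Fosl1 reached 1 FPKM in macrophage libraries alone, which bound it to be lower in osteoclasts. Among transcription factors that promote osteoclast formation, Jdp2 was higher by 5.08, Nfatc1 by 3.83 and Fosl2 by 3.73, and Irf8, a repressor of it, was lower by -3.50. The factors Mitf and Tfe3 were among the lower genes. Their means were 12.7 and 15.8 FPKM in untreated macrophages and 10.1 and 5.71 FPKM in untreated osteoclasts. Beside LPS-treated macrophages, 5 regulators were higher and 8 lower in LPS-treated osteoclasts, with a median of -0.41 and 83.9% of all genes called. With LPS in macrophages 7 rose and 4 fell, beside 69.9% of all genes called, with a median of 0.37. Jdp2 was higher by 4.41, Prdm1 by 2.80, Mitf by 2.26 and Irf8 by 2.02. Jdp2 read 8.98, 10.4 and 8.28 FPKM in untreated macrophages and 195, 237 and 217 FPKM with LPS. In untreated osteoclasts it read 331, 357 and 346 FPKM. Dcstamp stayed under 0.5 FPKM in each macrophage library, and a link of Jdp2 or Nfatc1 to it was not tested. Nfatc1 read 7.01, 6.97 and 7.13 FPKM in untreated macrophages and 4.75, 4.61 and 4.62 FPKM with LPS. In osteoclasts with LPS 3 regulators rose, 1 fell and 10 were not called, beside 17.7% of all genes called, with a median of -0.03. Mitf at 0.33, Bcl6 at 0.32 and Nfatc1 at 0.23 were higher, and Tnfrsf11a, the gene of the RANKL receptor RANK, was lower at -0.15 (-0.25 under quantile normalization). The Nfatc1 call was lost under TPM (adjusted p = 0.0551) and quantile normalization (adjusted p = 0.103).

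The counts of these lists depend on scaling. So does the share of higher genes among all genes called, given in the last section. That share fell under TPM for the untreated cell types and for LPS in each cell type. The counts below are therefore no result about the lists. Under TPM, LPS in macrophages gave 5 higher and 9 lower among the other fusion genes, 3 and 10 among the tetraspanins, 2 and 4 among the partners, 1 and 8 around CD47 and SIRPα, and 6 and 7 among the regulators. Between the untreated cell types the TPM counts were 7 and 7, 6 and 7, 3 and 4, 2 and 9, and 7 and 7 in the same order. Between the LPS-treated cell types they were 7 and 7, 11 and 4, 3 and 4, 3 and 7, and 5 and 8. For LPS in osteoclasts the TPM counts were 1 and 2, 2 and 2, 2 and 2, 1 and 0, and 2 and 5, and quantile normalization gave 1 and 4, 2 and 4, 2 and 2, 1 and 0, and 2 and 5. The excess of higher genes there among the other fusion genes, the tetraspanins and the regulators was thus lost or turned under both. The median of all genes tested moved the same way, from 0.01 to -0.06 under TPM and -0.05 under quantile normalization. The share of higher genes among all genes called fell too, so the turn was not particular to these lists. The TPM medians between the untreated cell types were -0.11, -0.17, -0.32, -1.48 and -0.26, beside -0.38 for all genes tested, so 4 of the 5 turned sign. For LPS in macrophages they were -0.52, -0.39, -0.17, -0.58 and -0.19, beside -0.55 for all genes tested, and all 5 turned sign. On the deposited scale the medians of all genes tested were 0 and 0.02 in these comparisons. They moved down too, so the turns of sign were not particular to the lists. The untreated median around CD47 and SIRPα was also -1.48 by voom and -1.38 with a pseudocount of 0.1. The median of the partners for LPS in macrophages was 0.48 in both of these, and that of the tetraspanins 0.15 by voom.

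Genes with the pattern most like each fusion gene were found by Pearson correlation of log2(FPKM + 1) over the 12 libraries, among 6424 genes averaging 5 FPKM or more. The libraries form 4 groups, so the correlation mostly compares group means, and no p is given. Dcstamp was followed most closely by Rufy4, 4833415N18Rik and Myo1d, each with r = 1.00 to 2 decimals. Ocstamp was followed by Mt3, Msln and Oscar, the last the gene of an osteoclast receptor that stood at 171 FPKM in untreated osteoclasts and 0.024 FPKM in untreated macrophages. Cd9 was followed by Slc39a11, Lpcat4 and Timmdc1, with r of 0.99. Cd81 was followed by the chemokine gene Ccl6, Pld4 and Cd36, and Cd36 stood at 452 FPKM in untreated macrophages and 23.2 FPKM in untreated osteoclasts.

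The genes most like Cd47 were Ppp2r5a, Tor1aip2 and Socs7, each with r of 1.00 to 2 decimals. Ppp2r5a, a regulatory subunit of protein phosphatase 2A, rose from 9.81 to 31.5 FPKM with LPS in macrophages and stood at 9.33 and 10.2 FPKM in osteoclasts without and with LPS. Socs7, of the SOCS family, went from 4.27 to 29.8 FPKM in macrophages and from 3.67 to 4.53 FPKM in osteoclasts. Tor1aip2 went from 17.5 to 82.3 FPKM and from 16.4 to 19.4 FPKM, and 7.58% of its exon bases overlap Tor1aip1 on the opposite strand. Sirpa was followed by Kcnk13, Ctcf and Map3k3, with r from 0.99 to 1.00.

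**Figure D4:**
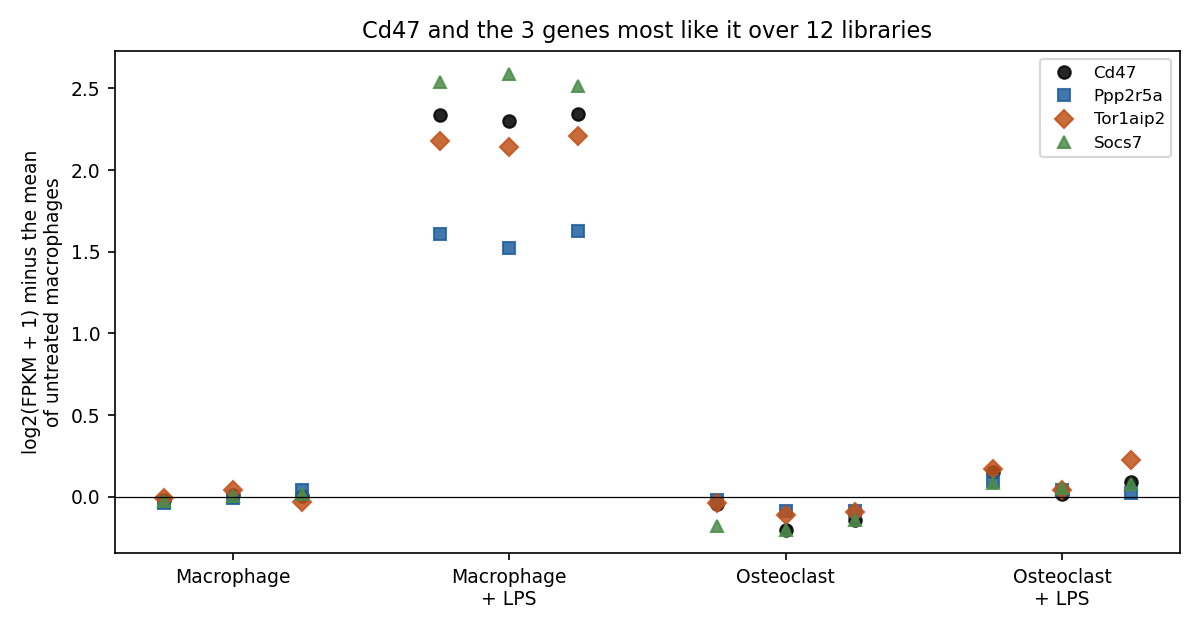
Level of Cd47 and of the 3 genes most like it in the 12 libraries, as log2(FPKM + 1) minus the mean of the 3 untreated macrophage libraries. The 4 genes rise together in the 3 LPS-treated macrophage libraries and stay within about 0.3 of 0 in the others.

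Some values carry limits of counting. Of Cd9's exon bases, 10.67% overlap the antisense gene Gm26728, which stood at or under 0.0753 FPKM, and 3.61% of Cd81's overlap the antisense gene R74862, at or under 0.503 FPKM. Whether strand was used in counting is not stated. Stretches of 50 bases found also in transcripts of other genes made up 14.41% of those of Cd9, 2.8% of Ocstamp, 0.87% of Cd81 and 0.72% of Cd47, and none of Dcstamp or Sirpa. The antisense overlap also touches Igsf3, Igsf8, Itga4, Itgav, Thbs1, Fyb, Ptpn6, Jdp2, Cd151, Csf1r, Cx3cr1, Syna, Synb, Adam8, Bcl6 and Ctcf. It is largest for Fosl1, where 57.21% of exon bases overlap Ccdc85b. On the same strand, 68.67% of Itgam's exon bases overlap Gm49368, and P2rx7 and Fyb share 1.99% and 4.29% with other genes, so the Itgam value is uncertain.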

How the data were processed

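RNA was sequenced from 12 libraries in 4 groups of 3, grouped by their titles. The NEBNext Ultra kit was used for the libraries, per the labels' protocols. The submitters' processing notes name fastp, STAR, featureCounts, DESeq2 and mm10, without roles or versions. The authors deposited FPKM values for 54532 genes. Values of all 25854 genes above 0 were whole multiples of a step per gene (tolerance 0.02 read), and 96.8% of the steps matched exon lengths of GENCODE M21. The library denominators matched median-of-ratios scaling within 3.1e-05%, so a change is relative to the typical gene. This is inferred from the values.

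Limma 3.58.1 in R 4.3.3 was fitted to log2(FPKM + 1) with 4 group means and a variance trend for the 11335 genes that reached 1 FPKM in 3 or more libraries. Tests were two-sided, adjusted by Benjamini-Hochberg over these genes and called under 0.05. Intervals are 95% intervals of the fit. The steps were tested on simulated data. Alternatives were TPM, a mean filter at 5 FPKM, no filter, a pseudocount of 0.1, quantile normalization, only the groups compared, a replicate block, no variance trend, voom on recovered reads, and each library left out. The 6 genes and the gene lists were chosen with earlier results of these data known. A gene of the regulator list is not reported here and is not in its counts and medians. From each list, up to 4 genes per comparison with the largest called differences, no overlap between libraries and a mean of at least 1 FPKM were named. This was done for the untreated cell types and for LPS in each cell type. For the LPS-treated cell types the lists are given by counts and medians only. Partners described with a fusion gene, genes named as not called, and genes named because they passed the filter through 1 cell type alone were named outside that rule, as were the macrophage markers, Fyb for LPS in osteoclasts, whose libraries overlapped, and Nfatc1 for LPS in macrophages. Mitf and Tfe3 for the untreated cell types were also named outside it.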

Additional observations from a re-analysis of the deposited data

Results flagged for a closer look

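On the deposited scale Cd47 was the fusion gene whose LPS effects in the 2 cell types differed by a test of the difference itself. In that test 56.6% of all genes tested were called. Of the 6 fusion genes, TPM gave 3 called higher and 1 lower, and quantile normalization 2 higher and 1 lower. For Cd47 the effect in osteoclasts minus that in macrophages was -2.112 on the log2(FPKM + 1) scale (limma adjusted p = 2.09e-10). Cd47 rose in both cell types, from a mean of 21.98 to 114 FPKM in macrophages and from 20.04 to 23.4 FPKM in osteoclasts. Leaving out each library in turn gave values from -2.148 to -2.071. The osteoclast rise was not called with quantile normalization or when only the osteoclast groups were fitted.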

How the results depend on the processing

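A fitted difference is relative to the scaling of the libraries. Under TPM the median over all tested genes became -0.38 for untreated osteoclasts against macrophages, 0.12 for the same with LPS, -0.55 for LPS in macrophages, -0.06 for LPS in osteoclasts and 0.51 for the difference between the LPS effects. The share of called genes that were higher went from 49.9% to 29.9% under TPM for the untreated cell types, from 52.6% to 18.5% (37.0% with quantile normalization) for LPS in macrophages, from 62.8% to 43.5% (38.5%) for LPS in osteoclasts, and from 47.0% to 82.0% (59.9%) for the difference, while a mean of at least 5 FPKM gave 64.2% for LPS in macrophages and 36.7% for the difference. With that filter, which tests fewer genes, 5427, 5694, 4851 and 4018 genes were called, in the order untreated cell types, cell types with LPS, LPS in macrophages and the difference, against 8822, 9509, 7921 and 6413. Of the 6 fusion genes, LPS changed 2 in macrophages by voom and when only the groups compared were fitted, and 2 to 4 with 1 library left out (2 without untreated macrophage replicate 1 or 3). LPS changed 1 in osteoclasts with quantile normalization and when only the groups compared were fitted. The difference between the LPS effects was called for 4 under TPM, for 3 with quantile normalization and for 1 to 2 with 1 library left out, 2 without LPS-treated macrophage replicate 1 or 3. On the deposited scale 69.9% of all genes tested were called for LPS in macrophages, 17.7% for LPS in osteoclasts and 56.6% for the difference. Shares under the alternatives are not given here, so these counts single out nothing about the fusion genes. Reversals were all of values not called on the deposited scale. For LPS in macrophages, Cd9 turned to -0.5455 (TPM) and -0.7615 (quantile), and Cd81 to -0.6033 and -0.7179. For the difference, Cd9 turned to 0.4242 and 0.6095, Cd81 to 0.2754 and 0.4438, Dcstamp to -0.007852 (quantile), and Ocstamp to -0.3079 (pseudocount of 0.1), -0.0285 (quantile) and -0.5234 (voom). With 1 library left out, Dcstamp under LPS in osteoclasts ranged from -0.04202 to 0.01568 and the Ocstamp difference from -0.00451 to 0.04765. The cause of these shifts was not tested. Of 264 differences recomputed under alternatives other than left-out libraries, 238 kept their direction and their side of the threshold, as did 341 of 360 with 1 library left out. Replicate numbers did not pair the libraries: deviations from the group means correlated by -0.07 to 0.10 between 18 same-numbered pairs and by -0.14 to 0.11 between 36 others. The replicate block changed no call among the 6 genes and gave 8787 called genes for the untreated cell types and 1930 for LPS in osteoclasts. Macrophage reads of Dcstamp and Ocstamp, 7 to 28 per library, limit what can be said of LPS there.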
